A study of Mus musculus with 10 samples.

Results

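The small nucleolar RNA (snoRNA) host genes were taken by name from the deposited human gene table, as the rows called SNHG followed by a number together with GAS5, ZFAS1 and EPB41L4A-AS1, where at least 20 reads were counted over all libraries. The rule found 28 rows by name, of which 3 fell under the minimum (SNHG18 and both rows named SNHG28, each with 0 counts), and left 25 of 58735 genes. The member with the fewest reads was SNHG22, with 74 counts. The table annotates 10 of the 25 as processed transcripts, 8 as lincRNA, 6 as antisense and 1 as sense overlapping, so none of them is listed as protein-coding. The RNA came from tumours grown under the skin from LNCaP cells, a human prostate cancer line, in immunodeficient mice of the strain NOD.Cg-Prkdcscid Il2rgtm1Wjl/SzJ, which make no T, B or NK cells of their own. All mice received sipuleucel-T (sip-T), a product of human blood cells cultured with a prostate antigen fusion, in 4 intraperitoneal doses of 5 × 1000000 cells in 100 µl at intervals of 1 week. In the control group (5 tumours) the cells were given with vehicle, and in the IL-15 group (5 tumours) they were given with 1 µg of recombinant IL-15, a human cytokine on which T and NK cells depend. Tumours were collected on day 7 after the last dose, and the sources used here do not give the age of the mice. The design text speaks of cells treated with IL-15 while the sample labels speak of control cells given with it, so these 2 ways of giving IL-15 cannot be told apart.

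Most human snoRNAs, which guide the methylation and pseudouridylation of ribosomal and spliceosomal RNA, are cut out of the introns of longer transcripts, and the genes described here are known for making these snoRNAs rather than a protein. Several of them, GAS5 and SNHG1 among them, are known to start with a terminal oligopyrimidine (TOP) tract like the messengers of ribosomal proteins, and their spliced RNA is known to enter ribosomes and to be removed by nonsense-mediated decay when translated. The start sequences of these genes were not analysed here.

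The libraries held 13.6 to 19.3 × 1000000 counts each, so that 3 counts, taken as the floor, amount to 0.155 to 0.221 CPM (counts per 1000000 counts), and the host genes took 0.117 to 0.201% of the counts. All 9 LNCaP marker genes reported here, among them KLK3 and KLK2, had counts in every library, with sums of 7926 to 11695 CPM in the control group and 8863 to 13900 CPM in the IL-15 group. Human T cell markers (18 genes, 9 with counts in every library) summed to 5.24 to 24.1 CPM in control tumours and to 7.18 to 54.4 CPM with IL-15, and NK cell and cytotoxicity markers (12 genes, 4 with counts in every library) to 1.16 to 16.2 and 3.99 to 39.3 CPM. Of 6 B cell markers MS4A1 was at 0 in all libraries. In bulk tumours, fewer cells of a type and less RNA per cell cannot be told apart. The labels do not state that each library is a separate animal, and the p-values then measure only the spread between these samples.

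SNHG19 had the highest level per gene length of the 25 genes in every one of the 10 tumours. Its level in the deposited FPKM values (fragments scaled to gene length and depth) was 244 ± 117 FPKM (SD, n = 10), with a range of 120.2 to 485 FPKM. SNHG19 (ENSG00000260260, chromosome 16, 2154797 to 2155358, minus strand, all coordinates here on hg38) has a gene model of only 342 bases and is the host of SNORD60. The next gene by mean FPKM was SNHG8, the host of SNORA24, at 73.6 ± 20.5 FPKM, and GAS5, known as a transcript that builds up in growth-arrested cells, followed at 53.3 ± 12.1 FPKM. SNHG3 (43.7 ± 17.3 FPKM), SNHG6 (41.3 ± 13.9 FPKM) and SNHG4 (41.0 ± 9.87 FPKM) came next and differed from each other by less than their SD. SNHG1, the U22 host gene, stood at 24.4 ± 7.00 FPKM and ZFAS1, the host of SNORD12 and its relatives, at 22.7 ± 2.43 FPKM, which again differ by less than the SD of SNHG1. At the other end, SNHG26 and SNHG22 held the lowest 2 places in every tumour, with 0.302 ± 0.187 FPKM and 0.170 ± 0.117 FPKM. SNHG14, a long transcript of the imprinted Prader-Willi region, ranked 4th by CPM but 22nd by FPKM, since its gene model holds 43324 bases.

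**Figure D1:**
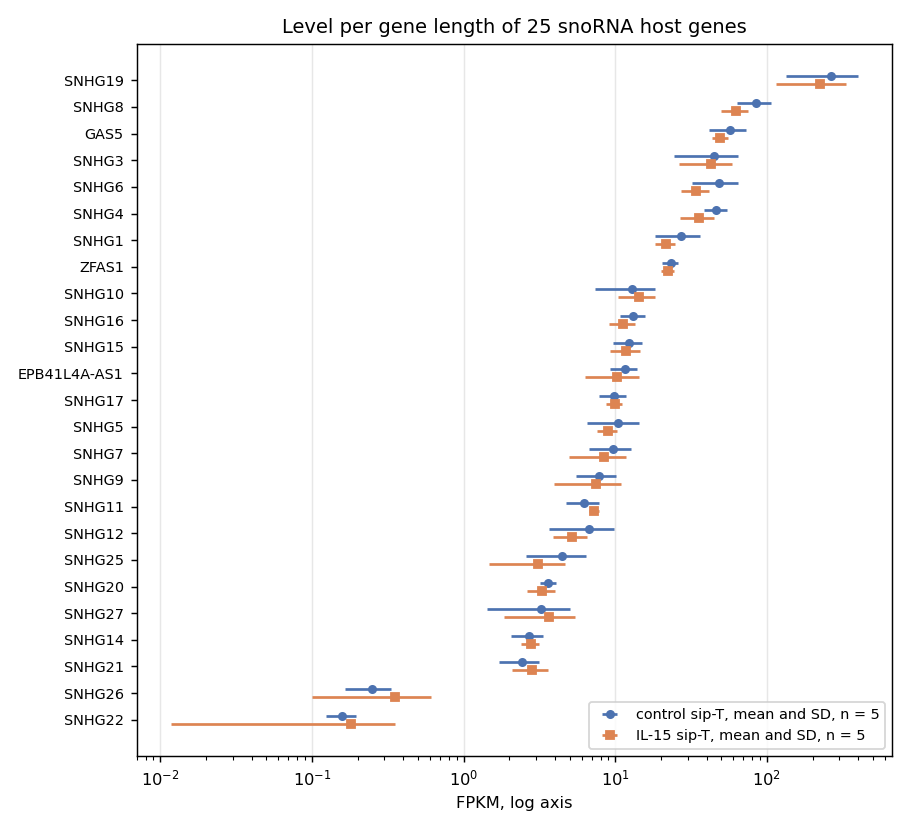
Mean FPKM and SD of the 25 host genes in control (circles) and IL-15 (squares) tumours, n = 5 each, on a log axis, ordered by the mean over all tumours. SNHG19 stands at the top with 244 FPKM and SNHG22 at the bottom with 0.170 FPKM, and the SD bars of both groups overlap for all 25 genes.

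No host gene passed the test between the groups, and the differences that were seen were small. Of the 24 genes abundant enough to be tested (SNHG22 was not), 17 had a log2 fold change of IL-15 over control below 0 and 7 above 0, where 50.9% of all 16892 tested genes lay below 0. Their median log2 fold change was -0.14, against -0.01 over all tested genes, and single values ran from -0.54 in SNHG25 to 0.51 in SNHG26 with standard errors of 0.13 to 0.47. With edgeR's quasi-likelihood test and Benjamini-Hochberg adjustment over all genes, 0 host genes passed 0.05 (adjusted p from 0.759 to 0.982), in a table where 0.0% of genes passed. At an unadjusted p under 0.05, 2 host genes were lower, where 3.42% of all genes were, and 0 were higher, where 3.04% were. DESeq2 called 0.0414% of all genes, 0 of them host genes. With DESeq2, 2 of the 24 host genes had an unadjusted p under 0.05, as had 1244 of all 16892 tested genes. With limma voom 0 genes were called in all, and 1052 had an unadjusted p under 0.05, against 1091 with edgeR. In 0 of the 24 genes did the groups separate fully, against 0.308% of all genes with every IL-15 tumour below every control tumour and 0.349% with every IL-15 tumour above.

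The host gene median, which was not tested and covers genes on both sides of 0, moved with single tumours. The value of -0.14 became -0.04 without IL-15 tumour 3, -0.06 without control tumour 5, -0.08 without control tumour 2 and -0.25 without IL-15 tumour 5. With scaling by library size alone the median was -0.06, 14 genes lay below 0 and the share of all genes below 0 was 37.3%. Relative to the median of all genes the host gene median was then -0.14, where with TMM scaling it was -0.13. Summed over the 25 genes, the level was 1588, 1781, 1266, 1285 and 2179 CPM in control tumours 1 to 5 and 1517, 1524, 1065, 1335 and 1695 CPM in IL-15 tumours 1 to 5. Control tumour 5 was the highest and IL-15 tumour 3 the lowest, and the other 8 tumours of both groups overlapped.

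**Figure D2:**
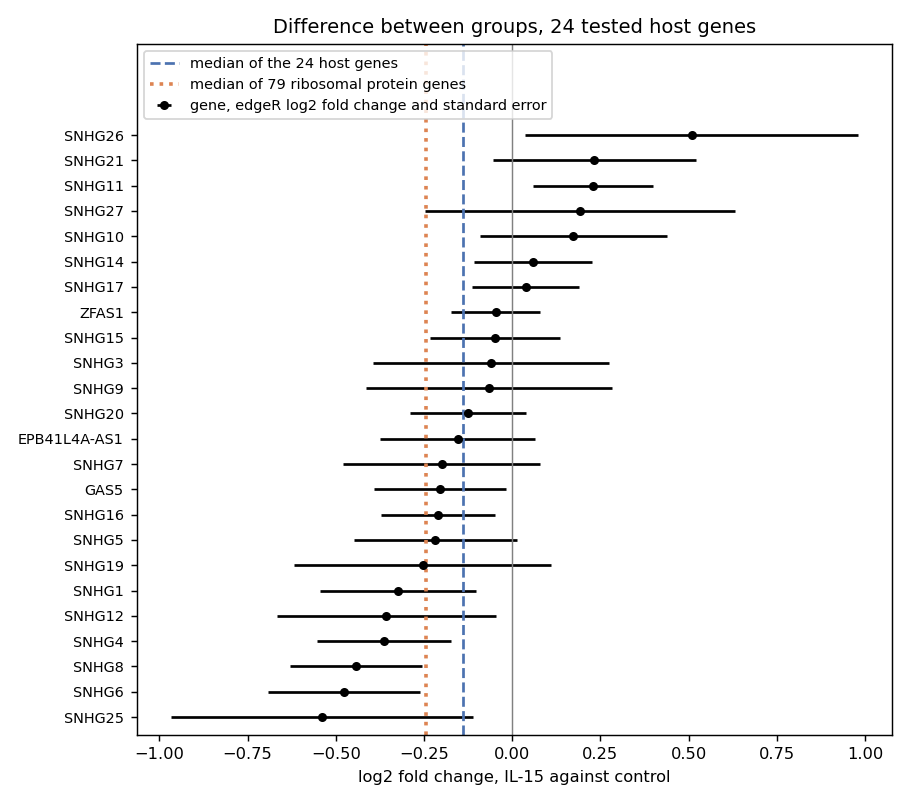
Log2 fold change of IL-15 over control tumours with its standard error for the 24 tested host genes, from the edgeR fit on all genes. The dashed line marks the host gene median of -0.14 and the dotted line the ribosomal protein gene median of -0.24, and 17 of the 24 points lie left of 0.

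SNHG8, SNHG6 and SNHG4 had the smallest p-values among the genes with lower levels in IL-15 tumours. SNHG8 (ENSG00000269893, chromosome 4, 118278709 to 118279823, plus strand) measured 83.7, 97.5, 67.4, 65.0 and 119 CPM in control tumours 1 to 5 and 68.9, 81.7, 48.9, 57.9 and 61.1 CPM in IL-15 tumours 1 to 5. Control tumour 5 was the highest, and IL-15 tumours 3, 4 and 5 lay below every control tumour while IL-15 tumours 1 and 2 fell within the control range. Its means were 86.5 ± 22.5 CPM for control tumours and 63.7 ± 12.3 CPM with IL-15 (SD, n = 5 each), a log2 fold change of -0.44 ± 0.19. The edgeR unadjusted p was 0.034 and the adjusted p was 0.759. SNHG6, the host of SNORD87 (ENSG00000245910, chromosome 8, 66921684 to 66926398, minus strand), measured 51.0, 102, 57.3, 48.4 and 72.1 CPM in control tumours 1 to 5 and 54.4, 59.9, 34.5, 43.4 and 45.3 CPM in IL-15 tumours 1 to 5. Control tumour 2 stood well above the rest, and again IL-15 tumours 3, 4 and 5 lay below the whole control range. The log2 fold change of SNHG6 was -0.48 ± 0.21 (edgeR unadjusted p = 0.044, adjusted p = 0.759), and -0.27 without control tumour 2. SNHG4, the host of SNORA74A (ENSG00000281398, chromosome 5, 139274102 to 139284899, plus strand), measured 192, 269, 189.8, 215 and 272 CPM in control tumours 1 to 5 and 205, 213, 108, 158 and 201 CPM in IL-15 tumours 1 to 5. IL-15 tumours 3 and 4 were below every control tumour and the other 3 were within the control range, with a log2 fold change of -0.36 ± 0.19, or -0.22 without IL-15 tumour 3. SNHG4 lies wholly within SIL1 on the opposite strand, and the sources used here do not say whether counting used strand. It also lies wholly within a row named MATR3 on the same strand, which had 41 counts over all libraries. These overlaps are of the gene spans, shared exons were not examined, and whether reads were shared was not tested. SIL1 itself had a log2 fold change of -0.18 ± 0.14.

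**Figure D3:**
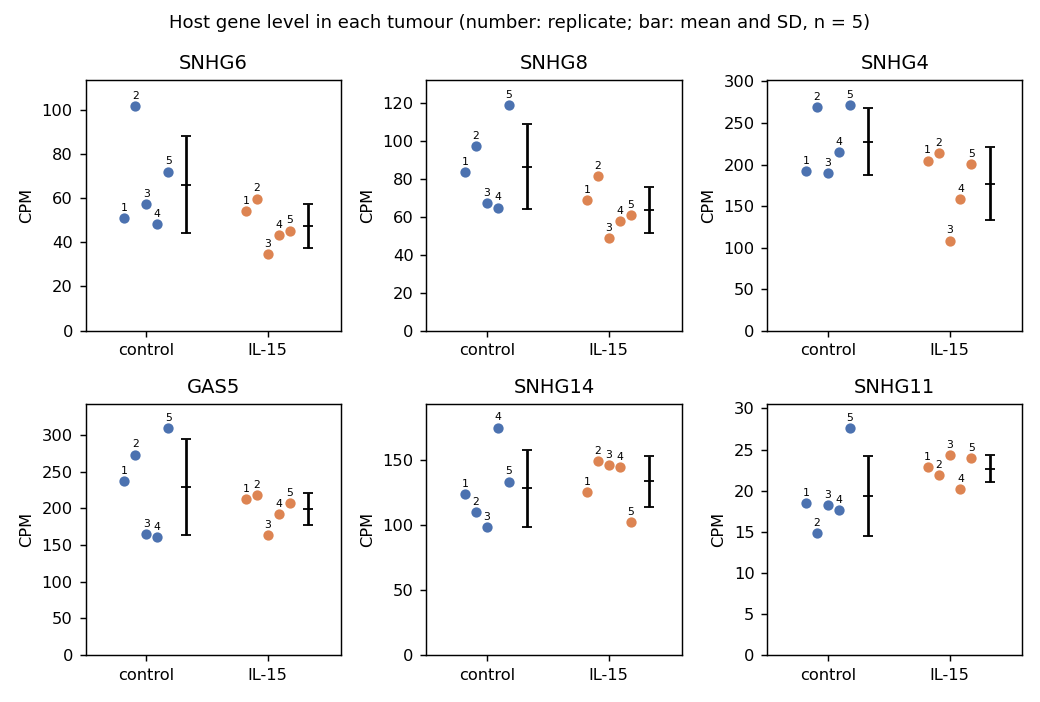
CPM of 6 host genes in each tumour, with the replicate number at each point and the mean and SD of the 5 tumours of a group as a bar. For SNHG6 and SNHG8, IL-15 tumours 3, 4 and 5 lie below all control tumours, and all 6 genes overlap between the groups.

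GAS5, SNHG1 and SNHG16 had fold changes below 0 under every alternative that was run, none of them past the test, and their size moved with single tumours. GAS5 (ENSG00000234741, chromosome 1, 173863900 to 173868882, minus strand), known to bind the glucocorticoid receptor, measured 237, 274, 165, 161 and 309.6 CPM in control tumours 1 to 5 and 212, 219, 163, 192 and 208 CPM in IL-15 tumours 1 to 5. Its control tumours spread over both sides of the IL-15 tumours, which all lay inside the control range, and its log2 fold change was -0.20 ± 0.19, or -0.08 without control tumour 5. SNHG1 (ENSG00000255717, chromosome 11, 62851988 to 62855914, minus strand) measured 109, 131, 107, 56.8 and 159 CPM in control tumours 1 to 5 and 100.4, 101, 69.8, 91.1 and 86.5 CPM in IL-15 tumours 1 to 5. Control tumour 4 was the lowest of all and control tumour 5 the highest, so the IL-15 tumours lay within the control range, with a log2 fold change of -0.32 ± 0.22, or -0.17 without control tumour 5 and -0.49 without control tumour 4. SNHG16, the host of SNORD1A, SNORD1B and SNORD1C (ENSG00000163597, chromosome 17, 76557766 to 76565348, plus strand), measured 68.8, 101, 78.7, 63.6 and 75.1 CPM in control tumours 1 to 5 and 54.9, 83.4, 56.2, 65.4 and 74.8 CPM in IL-15 tumours 1 to 5. IL-15 tumours 1 and 3 were below every control tumour and the other 3 were inside the control range (log2 fold change -0.21 ± 0.16, or -0.10 without control tumour 2).

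SNHG3, SNHG19 and ZFAS1 did not keep a direction when single tumours were left out. SNHG3, the host of SNORA73A and SNORA73B (ENSG00000242125, chromosome 1, 28505980 to 28510892, plus strand), measured 229.7, 181, 114, 136 and 348 CPM in control tumours 1 to 5 and 229, 178, 93.6, 179 and 288 CPM in IL-15 tumours 1 to 5. Both groups held tumours at the high and at the low end, the highest being 3.72 times the lowest, and the log2 fold change was -0.06 ± 0.33 with all tumours and 0.22 without control tumour 5. SNHG3 lies within RCC1 on the same strand, so reads of these 2 genes could be shared. SNHG19 measured 111, 81.0, 71.5, 54.7 and 184 CPM in control tumours 1 to 5 and 80.2, 74.2, 46.7, 68.4 and 152 CPM in IL-15 tumours 1 to 5. Tumour 5 was the highest in each group, and the log2 fold change was -0.25 ± 0.36 with all tumours and 0.08 without control tumour 5. ZFAS1, an RNA named for lying antisense to the start of ZNFX1 (ENSG00000177410, chromosome 20, 49278178 to 49295738, plus strand), measured 62.2, 66.7, 50.3, 50.0 and 56.5 CPM in control tumours 1 to 5 and 54.4, 55.8, 48.4, 55.8 and 62.0 CPM in IL-15 tumours 1 to 5. It was the steadiest of the 25 genes, with a coefficient of variation of 10.6% over the 10 tumours, and its log2 fold change was -0.05 ± 0.13.

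Among the 7 genes above 0, SNHG11, SNHG26 and SNHG21 had the smallest p-values. SNHG11, the host of SNORA60 and SNORA71E (ENSG00000174365, chromosome 20, 38446578 to 38450921, plus strand), measured 18.5, 14.8, 18.2, 17.6 and 27.6 CPM in control tumours 1 to 5 and 22.9, 21.9, 24.4, 20.2 and 23.98 CPM in IL-15 tumours 1 to 5. Every IL-15 tumour was above control tumours 1 to 4, while control tumour 5 was above every IL-15 tumour, and the log2 fold change was 0.23 ± 0.17, or 0.38 without control tumour 5. SNHG26, the host of SNORD93 (ENSG00000228649, chromosome 7, 22854178 to 22861579, plus strand), was near the counting floor at 0.385, 0.778, 1.03, 0.757 and 0.644 CPM in control tumours 1 to 5 and 1.17, 0.426, 0.937, 0.430 and 2.21 CPM in IL-15 tumours 1 to 5. Only IL-15 tumours 1 and 5 exceeded the control range, and the log2 fold change of 0.51 ± 0.47 became 0.04 without IL-15 tumour 5. SNHG21, the host of SCARNA15 (ENSG00000250988, chromosome 15, 82750564 to 82757206, plus strand), measured 2.31, 1.91, 3.08, 2.68 and 4.08 CPM in control tumours 1 to 5 and 4.14, 3.62, 2.06, 2.80 and 3.90 CPM in IL-15 tumours 1 to 5. The groups overlapped over most of their range, with 1 IL-15 tumour above the highest control tumour and a log2 fold change of 0.23 ± 0.29. SNHG14 (ENSG00000224078, chromosome 15, 24978583 to 25419462, plus strand) measured 124, 109.7, 98.4, 175 and 133 CPM in control tumours 1 to 5 and 125, 149, 146, 144 and 102 CPM in IL-15 tumours 1 to 5. Both its highest and its lowest value came from the control group, and its log2 fold change was 0.06 ± 0.17, turning to -0.02 without control tumour 3.

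The other 11 tested genes had mean levels from 1.16 CPM in SNHG25 to 48.8 CPM in SNHG15. SNHG25 had the lowest fold change of all (-0.54 ± 0.43), from 1.37 ± 0.588 CPM for control tumours and 0.949 ± 0.494 CPM with IL-15. SNHG12, which carries 5 snoRNA rows, was next among these at -0.36 ± 0.31. SNHG5, the host of SNORD50B, stood at -0.22 ± 0.23, SNHG7 at -0.20 ± 0.28, EPB41L4A-AS1, the host of SNORA13, at -0.15 ± 0.22, SNHG20 at -0.13 ± 0.16, SNHG9 at -0.07 ± 0.35 and SNHG15 at -0.05 ± 0.18. SNHG27, SNHG10 and SNHG17 had values above 0, of 0.19 ± 0.44, 0.17 ± 0.26 and 0.04 ± 0.15. Of these 11 genes, SNHG7, SNHG5, SNHG10, SNHG12, SNHG20, SNHG25 and EPB41L4A-AS1 kept their direction in every alternative run, and SNHG15, SNHG17, SNHG27 and SNHG9 did not. With single tumours left out, the value ranged from -0.41 to -0.02 for EPB41L4A-AS1, the latter without control tumour 2, and from -0.44 to -0.04 for SNHG7, the latter without IL-15 tumour 3 or control tumour 5. SNHG10 ranged from 0.02 without IL-15 tumour 5 to 0.44 without control tumour 5, SNHG12 from -0.56 without control tumour 4 to -0.12 without control tumour 5, and SNHG5 from -0.34 without control tumour 4 to -0.07 without control tumour 5 or 2. The ranges were -0.21 to -0.05 for SNHG20 and -0.80 to -0.31 for SNHG25. SNHG22, which was not tested, measured 0.453 ± 0.0968 CPM for control tumours and 0.527 ± 0.493 CPM with IL-15.

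Genes that share features or partners with the host genes were also not called: edgeR called 0 genes in each of 7 lists, in both directions, and with TMM scaling all 7 medians were below 0. Of 79 ribosomal protein genes, 74 had a fold change below 0, with a median of -0.24, where 50.9% of all tested genes lay below 0. Their messengers carry the TOP start known for several host genes. At an unadjusted p under 0.05, 5 of the 79 were lower, where 3.42% of all tested genes were. RPL27A, a large-subunit protein gene that itself holds a snoRNA, measured 1088 ± 284 against 745 ± 153 CPM (log2 fold change -0.55 ± 0.20), RPS13 545 ± 131 against 399.8 ± 52.0 CPM (-0.45 ± 0.17) and RPS25 643 ± 161 against 461 ± 80.8 CPM (-0.48 ± 0.19). Among 23 other genes with TOP messengers, such as translation factors, 18 were below 0 (median -0.15). EIF3F measured 279 ± 39.7 against 200.4 ± 37.9 CPM (log2 fold change -0.48 ± 0.16), EIF3L -0.24 ± 0.13 on the log2 scale and TPT1, in the other direction, 0.25 ± 0.14. With TMM scaling all 16 genes that control the translation of TOP messengers, in the mTOR and LARP1 pathway, lay below 0 (13 with library size alone), with a median of -0.17 and 3 at an unadjusted p under 0.05. These were RPTOR, the mTOR complex subunit (-0.41 ± 0.16), LARP1, which binds the TOP start (-0.37 ± 0.17), and RPS6KB2, an S6 kinase gene (-0.35 ± 0.15).

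Lists of snoRNA-binding proteins, decay factors and other snoRNA-holding genes had medians closer to 0, apart from the core proteins. Of 8 genes for the core proteins of snoRNPs, such as the pseudouridine synthase complex members, 7 lay below 0 (median -0.20), with NOP10 at -0.19 ± 0.11, NHP2 at -0.23 ± 0.16 and GAR1 at -0.27 ± 0.19. Of 12 snoRNP assembly genes 9 lay below 0 (median -0.05), NAF1, an assembly factor of H/ACA particles, being at -0.30 ± 0.17, RUVBL2 at -0.25 ± 0.17 and RPAP3 at -0.15 ± 0.14. Of 18 nonsense-mediated decay genes 10 lay below 0 (median -0.04), with UPF3A at 0.16 ± 0.15, UPF2 at 0.12 ± 0.12 and SMG5 at -0.13 ± 0.16. In these 3 lists, 0 genes had an unadjusted p under 0.05. Of 250 tested genes outside the host genes that also hold a snoRNA, most of them protein-coding, 153 lay below 0 (median -0.04). At an unadjusted p under 0.05, 4 were higher in IL-15 tumours and 17 lower, where 3.04% and 3.42% of all tested genes were. STIM1 (-0.44 ± 0.14), CKAP5 (-0.50 ± 0.16) and RPL27A had the smallest p-values there. Ribosomal protein genes make up 28 of the 343 such rows, and over the 222 tested genes without them the median was -0.02. With library size alone the medians of the assembly, decay and other snoRNA-holding lists turned to 0.03, 0.04 and 0.04, while those of the ribosomal protein, other TOP, TOP control and snoRNP core lists stayed below 0 at -0.17, -0.07, -0.09 and -0.12. The median over all tested genes was then 0.08, against -0.01 with TMM scaling, and each of these list medians lay below that 0.08.

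Across tumours most host genes had a positive correlation with the ribosomal protein genes, none of them past the test. The reference was the mean log2 CPM of the 79 ribosomal protein genes. Their summed level ran from 70172.5 to 103512 CPM in control and from 49808.1 to 84297.5 CPM in IL-15 tumours. Over the 10 tumours, Pearson's r of the 24 tested host genes had a median of 0.65, with 20 above 0 and 17 above 0.5. Of the 16813 tested genes outside the ribosomal protein list, 8003 lay above 0 and 17.3% above 0.5, with a median of -0.03. With deviations from each group's mean, the host gene median was again 0.65 and 22 host genes were above 0. The median over the 16813 genes was then -0.03, and their share above 0 was not computed. SNHG4 had the highest r (0.83, permutation p = 0.00473, adjusted 0.128; Spearman's rho 0.62, permutation p = 0.0620, adjusted 0.411), and its r was 0.43 without the 2 tumours farthest from the median, control tumour 5 and IL-15 tumour 3. SNHG8 followed with r = 0.83 (permutation p = 0.00343, adjusted 0.119; rho 0.70, permutation p = 0.0307, adjusted 0.367), or 0.52 without these tumours. The third, SNHG15, had r = 0.82 (permutation p = 0.00493, adjusted 0.129; rho 0.81, permutation p = 0.00764, adjusted 0.281), or 0.39 without them. Of the host genes 0 passed after adjustment over all 16813 genes, among which 0.0357% passed with a positive and 0.0119% with a negative r.

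The r values were lower without those 2 tumours, which had the lowest and the highest ribosomal protein level, so that leaving them out also narrows the range compared. With each tumour left out alone, the host gene median of r was 0.57 to 0.70. Without control tumour 5 and IL-15 tumour 3 the host gene median of r was 0.39 and 5 of 24 exceeded 0.5, with SNHG16 (0.90 against 0.75 with all tumours), EPB41L4A-AS1 (0.80 against 0.62) and ZFAS1 (0.60 in both) the highest. The median of all other genes was then -0.01. Their share above 0.5 without these 2 tumours was not computed, so the 5 of 24 stands without a background share. Other TOP messenger genes had a median r of 0.79 with all 10 tumours and 0.65 without the 2, and the snoRNP core genes 0.82 and 0.47. The snoRNP assembly genes (0.06), the decay genes (0.08) and the other genes that hold a snoRNA (0.02) had medians near 0. The T cell sum was 7.88, 7.78, 24.1, 5.24 and 6.58 CPM in control tumours 1 to 5 and 54.4, 7.18, 33.9, 31.4 and 10.1 CPM in IL-15 tumours 1 to 5. The tumour with the highest T cell sum, IL-15 tumour 1, had a summed host gene level of 1517 CPM, near the middle, and the one with the lowest, control tumour 4, had 1285 CPM, the third lowest. IL-15 tumours 3 and 4 and control tumour 3, next by T cell sum, had host gene sums of 1065, 1335 and 1266 CPM. The remaining tumours, with T cell sums of 6.58 to 10.1 CPM, had host gene sums of 1524 to 2179 CPM. The 5 tested T cell markers had a median log2 fold change of 1.03 and the 4 tested NK cell and cytotoxicity markers 2.06, all above 0. The part of infused cells in the host gene values was not tested. No sequencing batch or date is given in the labels, so no value within a batch could be computed.

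**Figure D4:**
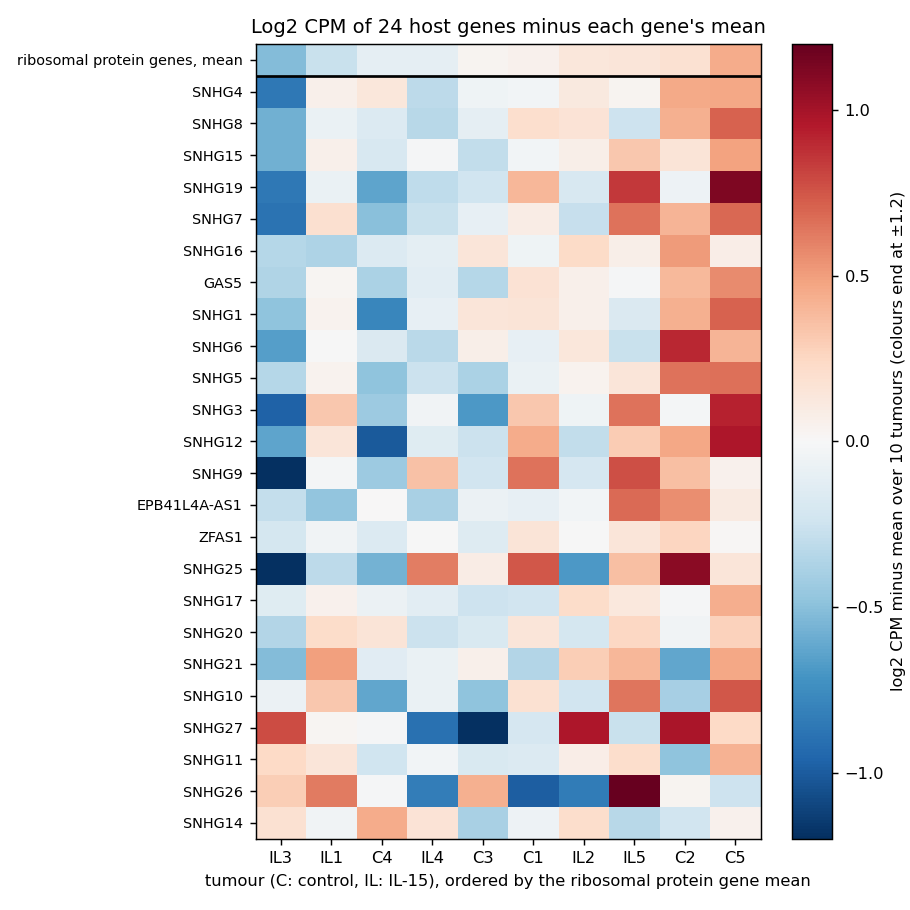
Log2 CPM of the 24 tested host genes in each tumour minus the gene's mean over all 10 tumours, in colour, with tumours ordered by the ribosomal protein gene mean in the top row and genes by their r with it. IL-15 tumour 3 on the left is low and control tumour 5 on the right is high for most genes, whereas SNHG14, SNHG26, SNHG11 and SNHG27 at the bottom do not follow that order.

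With all 10 tumours, SNHG14, SNHG26, SNHG11 and SNHG27 had the lowest r values, of -0.33, -0.13, -0.01 and -0.00. This order changed with the tumours used. Without control tumour 5 and IL-15 tumour 3, SNHG14 was at -0.42, SNHG21 at -0.34, SNHG11 at -0.26, SNHG20 at -0.20 and SNHG10 at -0.04, whereas SNHG26 was at 0.02 and SNHG27 at 0.33. With deviations from each group's mean, SNHG14 was at -0.30, SNHG26 at -0.02, SNHG27 at 0.09 and SNHG11 at 0.30. SNHG26 and SNHG27 are scarce, at 0.876 and 4.55 CPM on average, but SNHG14, at 131 CPM, is the 4th most abundant host gene. Among the 276 pairs of host genes, given as a description, the median r was 0.46, 224 pairs were above 0 and the range was -0.62 to 0.94.

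**Figure D5:**
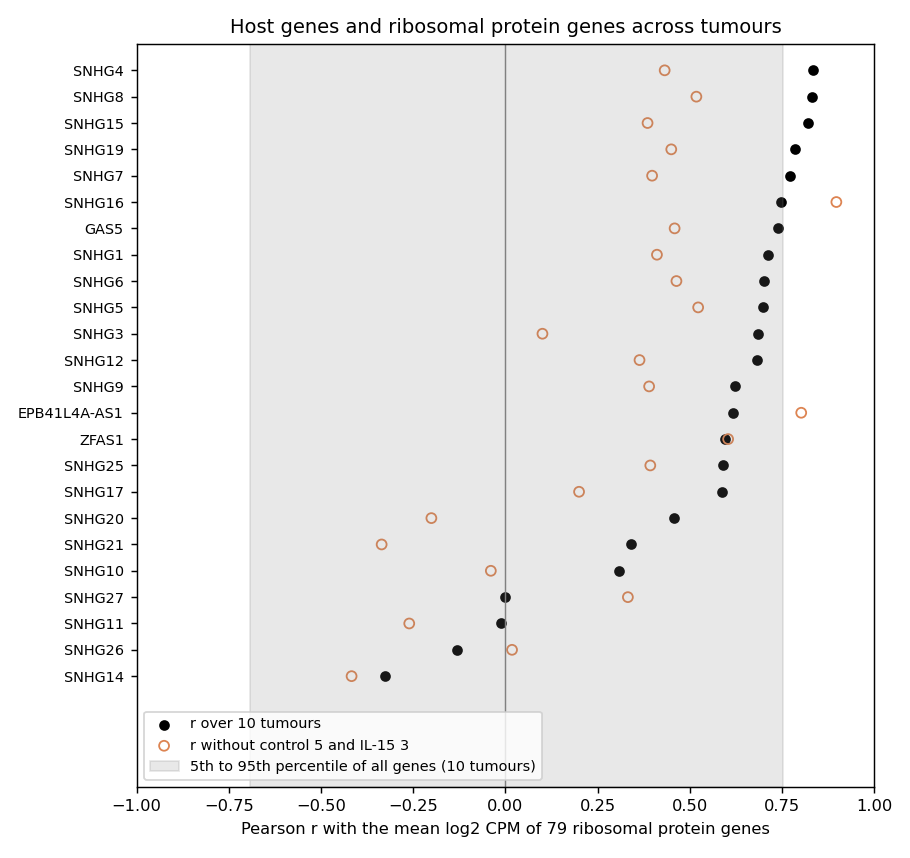
Pearson r over tumours between each host gene's log2 CPM and the mean of 79 ribosomal protein genes, with all 10 tumours (filled) and without control tumour 5 and IL-15 tumour 3 (open); the grey band spans the 5th to 95th percentile of all other tested genes with 10 tumours, -0.69 to 0.75. Filled points reach 0.83 for SNHG4 and SNHG8, and most open points lie between 0.3 and 0.6.

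Neighbouring and overlapping genes were compared in 16 pairs, with p-values adjusted over them. SNHG14 spans 440880 bases, holds 84 snoRNA rows of the SNORD115 and SNORD116 clusters and their neighbours, and runs opposite to UBE3A, the Angelman syndrome gene, over 85735 bases. Its level followed that of SNRPN, a protein-coding gene of the imprinted Prader-Willi region, with r = 0.86 (permutation p = 0.00210, adjusted 0.0307), or 0.70 without the 2 tumours farthest from the median of SNRPN. Spearman's rho was 0.78 (permutation p = 0.0105, adjusted 0.0514). PWAR6, a noncoding RNA inside SNHG14 on the same strand, had r = 0.77 with SNHG14 (permutation p = 0.0104, adjusted 0.0557), or 0.78 without the 2 tumours farthest from the median of PWAR6, and rho 0.85 (permutation p = 0.00288, adjusted 0.0230). On the same strand SNHG14 overlaps SNRPN by 141 bases and PWAR6 by 4618 bases, and whether reads were shared was not tested. UBE3A had r = 0.26 with SNHG14 (permutation p = 0.476, adjusted 0.635; rho 0.16, permutation p = 0.657, adjusted 0.903). Between the groups SNRPN measured 14.1 ± 3.99 against 18.3 ± 4.56 CPM (log2 fold change 0.38 ± 0.23) and PWAR6 19.97 ± 4.57 against 25.1 ± 4.45 CPM (0.33 ± 0.18), neither past edgeR (adjusted p = 0.785 and 0.775).

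SNHG3 and SNHG12, which lie 67646 bases apart on chromosome 1 on opposite strands, had r = 0.82 (permutation p = 0.00384, adjusted 0.0307), or 0.80 without the 2 tumours farthest from the median of SNHG12, and rho 0.85 (permutation p = 0.00282, adjusted 0.0230). This value is not particular to neighbours, since SNHG3 had its highest r among host genes with SNHG15 on chromosome 7 (0.94) and SNHG12 with GAS5 (0.90), given as a description. The neighbours SNHG19 and SNHG9 had r = 0.69 (permutation p = 0.0254, adjusted 0.0888), or 0.41 without the 2 tumours farthest from the median of SNHG9, and rho 0.77 (permutation p = 0.0128, adjusted 0.0514). SNHG6 and MCMDC2, which overlap on opposite strands, had r = 0.71 (permutation p = 0.0277, adjusted 0.0888), or 0.16 without the 2 tumours farthest from the median of MCMDC2, and rho 0.44 (permutation p = 0.205, adjusted 0.41). SNHG7 and FAM69B, also on opposite strands, had r = 0.67 (permutation p = 0.0352, adjusted 0.0938), or 0.69 without the 2 tumours farthest from the median of FAM69B, and rho 0.70 (permutation p = 0.0305, adjusted 0.0976). The pair SNHG17 and SNHG11, 11225 bases apart on chromosome 20, had r = 0.60 (permutation p = 0.0657, adjusted 0.137; rho 0.47, permutation p = 0.177, adjusted 0.41). SNHG16 and SNHG20 on chromosome 17 had r = -0.04 (permutation p = 0.914, adjusted 0.914; rho -0.01, permutation p = 1, adjusted 1). For SNHG3 and the gene that contains it, RCC1, r was 0.59 with all tumours (permutation p = 0.0683, adjusted 0.137) and 0.01 without the 2 tumours farthest from the median of RCC1. Their rho was 0.42 (permutation p = 0.234, adjusted 0.416). SNHG4 and SIL1 had r = 0.50 with all tumours (permutation p = 0.140, adjusted 0.249), or -0.61 without the 2 tumours farthest from the median of SIL1, and rho 0.09 (permutation p = 0.811, adjusted 0.927). Of the 16 pairs, 2 passed 0.05 after adjustment of r and 2 after adjustment of rho, with SNHG3 and SNHG12 in both.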

How the data were processed

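Per the labels' protocols, tumour RNA was isolated with TRIzol and read by Illumina sequencing. The submitters' processing notes name genome build hg38 and the tools HISAT2 2.0.5, fastp, GATK 4.1.1.0, featureCounts 1.5.0-p3 and DESeq2 1.20.0, without their roles. The sources used here do not give the strandedness, the annotation or how mouse reads were treated. Mouse is the organism named in the labels, but the tables hold human genes. The authors deposited raw counts of reads for each gene, per the file headers. The deposited FPKM values were used for levels per gene length and as an alternative. The authors' group mean FPKM values were not used.

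Groups came from the labels, 5 libraries each. Library pairs differed beyond sampling noise (chi-square over degrees of freedom 20.5 to 91.1 in 45 pairs). XIST and genes of the Y chromosome were removed before fitting. Of the LNCaP markers, 1 is not reported here. Genes passed edgeR's filterByExpr (minimum count 10), leaving 16892. TMM scaling and the quasi-likelihood test of edgeR 4.0.16 under R 4.3.3 followed, with calls at 0.05 after Benjamini-Hochberg adjustment. The biological coefficient of variation was 0.306. CPM are relative to the TMM-scaled library size, so floors are approximate and cover counting error only. Errors on fold changes are standard errors and on levels SD. Correlations used log2 CPM (prior count 2) and two-sided tests with 100000 permutations, adjusted over 16813 genes. Values in every tumour are given for the 10 genes with the highest mean CPM and the 3 with the smallest p in each direction, and up to 3 genes with the smallest p are named per list. The host genes and the lists were chosen with earlier results of these data known. Alternatives covered scaling, filters, DESeq2 1.42.0, limma 3.58.1, FPKM (pseudocount 0.1), a block for the replicate number, and leaving out each library.

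On counts simulated for this comparison (16574 genes tested), edgeR recovered 54.5% of 99 genes changed 2-fold and 85.7% of 98 changed 4-fold, with 4 false calls. Replicate numbers were not used to pair the samples in the main fit, and whether they mark pairs could not be settled from so few samples.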

Additional observations from a re-analysis of the deposited data

Results flagged for a closer look

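Among 50 groups of 5 values (25 host genes in 2 groups), 5 held a tumour that stood far from the other 4, with a gap above 0.71 of the group's range. Chance gives this in about 1 in 20 groups. In the control group, SNHG17 measured 60.9 CPM in tumour 5, against 38.0 to 44.5 CPM in the others. SNHG11 measured 27.6 CPM in the same tumour, against 14.8 to 18.5 CPM. EPB41L4A-AS1 measured 57.7 CPM in control tumour 2, against 36.5 to 42.1 CPM, and 62.9 CPM in IL-15 tumour 5, against 28.3 to 38.3 CPM. SNHG22 measured 1.38 CPM in IL-15 tumour 1, against 0.147 to 0.50 CPM in the other IL-15 tumours, the lowest of which is under the counting floor.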

How the results depend on the processing

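The count of genes called by edgeR was 0 in the analysis reported, 1 with no filter on low counts and 7 with DESeq2, and 0 in the other alternatives. The host gene median log2 fold change stayed below 0 in all of them, from -0.25 to -0.04 with each tumour left out in turn and from -0.17 to -0.06 otherwise, and the ribosomal protein gene median from -0.32 to -0.14 and from -0.27 to -0.17. The number of host genes below 0 ran from 13 to 20. The median r was 0.57 to 0.70 with each tumour left out and 0.61 to 0.66 with the other scalings, measures and references. With library size alone, SNHG3 (0.0167), ZFAS1 (0.0283) and SNHG15 (0.0284) turned to positive values. With each tumour left out in turn, the log2 fold change ranged from -0.25 to 0.22 for SNHG3, -0.58 to 0.0792 for SNHG19, -0.15 to 0.0788 for SNHG15, -0.0941 to 0.0118 for ZFAS1, -0.32 to 0.15 for SNHG9, -0.0174 to 0.17 for SNHG17, -0.0227 to 0.20 for SNHG14 and -0.0401 to 0.53 for SNHG27. The other 16 tested host genes kept their direction in every alternative, and the cause of these changes was not tested.

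Samples with the same replicate number had correlations of deviations from -0.22 to 0.26, too few values to settle whether the numbers mark pairs. With the replicate block edgeR called 0 genes (1033 at an unadjusted p under 0.05), with a host gene median of -0.15 and 17 genes below 0. With upper quartile scaling 43.5% of all genes lay below 0. The planned search for pyrimidine starts, with its alternatives, was not run. Genes near the counting floor, SNHG26, SNHG25 and SNHG22, are limited by depth.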

Other observations

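The snoRNAs themselves were poorly covered in these libraries. The host genes held 134 rows annotated as snoRNA or scaRNA on their own strand, of which 43 had at least 1 count, with 2261 counts over all libraries against 230313 counts in the host genes. In 23 of the 25 host genes at least 1 such row was found, and SNHG14 alone held 84, with 204 counts. No such row was found in SNHG27 or in GAS5, the host gene with the highest mean CPM, so these totals include no snoRNA row for GAS5. The best covered were SNORA71B in SNHG17 (393 counts), SNORA73B in SNHG3 (333), SNORD104 in SNHG25 (299) and SNORA71C in SNHG17 (221). SNORD104 had more counts than SNHG25 (172), the gene that contains it. In SNHG1, by contrast, all 7 snoRNA rows were at 0 while the host gene had 15234 counts. The sources used here do not give the size selection of the libraries, and the levels of mature snoRNAs were not tested.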
